A study of Mus musculus with 45 samples.

Results

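Oocytes from reconstituted chimeric follicles (RCF) of young oocytes and young somatic cells (RCF YY, 11 libraries) were compared with oocytes of young mice after culture in vitro (in vitro young, 8 libraries), gene by gene. A reconstituted follicle is made by taking the oocyte out of a follicle and putting another oocyte in its place, after which the follicle is cultured. The comparison therefore sets oocytes that had been moved between follicles against cultured young oocytes, and no group in it is aged. The 19 libraries, of 45 in the series, were chosen by their titles, without use of any measured value. The series holds 26 further libraries, of which the 8 from young oocytes without culture (in vivo young) are given beside the comparison as a point of reference and entered the fit to help estimate the spread. Each library came from 1 mouse oocyte, lysed and frozen by itself, and was prepared with a NEBNext kit for single cells and low input. The labels name each oocyte a biological replicate but give no animal, strain, age in weeks, culture time or meiotic stage for any group, so p-values measure the spread between these oocytes only, which may be technical. The sources used here do not say whether the in vitro young oocytes grew inside follicles or were freed and handled as the reconstituted ones were. Cell removal, transfer, culture conditions and collection day therefore cannot be told apart.

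A growing mouse oocyte makes and stores the mRNAs and proteins that carry it through meiosis and the first divisions of the embryo. It builds the zona pellucida around itself, secretes growth factors to the granulosa cells, and takes up metabolites from them through gap junctions at the tips of transzonal projections. When an oocyte is taken out of its follicle these contacts are cut, and they have to form again with the new somatic cells. Messages stored in the grown oocyte are translated or degraded as meiosis resumes, so the level of a stored mRNA depends on the stage reached as well as on how much was made. Levels below are CPM, counts divided by a library size scaled with TMM. They are shares of a library, and the total RNA of an oocyte was not measured.

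Total counts per library ran from 462476 to 1023332 in RCF YY (median 816218), from 900194 to 1527370 in in vitro young (median 1199472) and from 418703 to 2201980 in in vivo young (median 1122358), so depth was lower in RCF YY. All 18 defining oocyte genes were present in every group, with a summed level of 27950 to 35270 CPM in RCF YY, 28170 to 36810 CPM in in vitro young and 31910 to 39340 CPM in in vivo young. The 18 granulosa markers summed to 73.8 to 116 CPM in RCF YY, 72.8 to 145 CPM in in vitro young and 57.8 to 143 CPM in in vivo young, with Amh and Foxl2 at 0 in all 3 groups. Markers of immune cells summed to 3.52 to 20.8 CPM in RCF YY and 9.09 to 22.8 CPM in in vitro young, and those of theca and stroma to at most 7.14 CPM in RCF YY and 5.55 CPM in in vitro young. The library numbers in the titles do not overlap between groups. RCF YY libraries are numbered S198 to S202 (5 libraries) and S225 to S231 (6 libraries), and in vitro young libraries S128 to S149 (replicates 1 to 4) and S162 to S165 (replicates 5 to 8). The labels do not say what the numbers stand for, and whatever goes with them cannot be told apart from the group.

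Relative to in vitro young, RCF YY libraries had lower levels of some genes of the zona pellucida and egg surface (Zp2, Zp3, Cd9 and Astl), of the subcortical maternal complex and its relatives (Nlrp5, Nlrp9b, Nlrp9c and Padi6), of chaperones of the cytosol and of the endoplasmic reticulum (Hsp90aa1, Hsp90ab1 and Hspa5 among them), and of the kinetochore and spindle (Cenpf and Kif4 among them). Most tested members of these lists were not called. The lists were chosen with earlier results of these data known, and some share members. The share of a list that was called is therefore a description, not an independent test of enrichment. Genes that were higher in RCF YY were fewer, and included Fgf8, Mos, H2ax and the splicing factor gene Sf3a2. Of 8749 tested genes, 217 were called at an adjusted p under 0.05 (2.48%), of which 68 were higher in RCF YY (0.777%) and the rest lower (1.7%). A change of at least 2-fold was reached by 7 of the higher genes (0.08%) and 32 of the lower genes (0.366%). The median log2 change over all tested genes was 0.01 and the median size 0.19. The values of the 11 RCF YY libraries and the 8 in vitro young libraries did not overlap for 3 genes that were higher (0.0343% of those tested) and 6 that were lower (0.0686%). The higher ones were Fam131a, Dbndd1 (0.51 ± 0.11 SE on the log2 scale) and Prr5 (0.64 ± 0.14), and the lower ones Hsp90aa1, Hsp90ab1, Cenpf, Golgb1, Fbxw23 and Plcg2 (-1.08 ± 0.26), of which Dbndd1, Prr5 and Plcg2 are named for this reason only, after their values were seen.

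**Figure D1:**
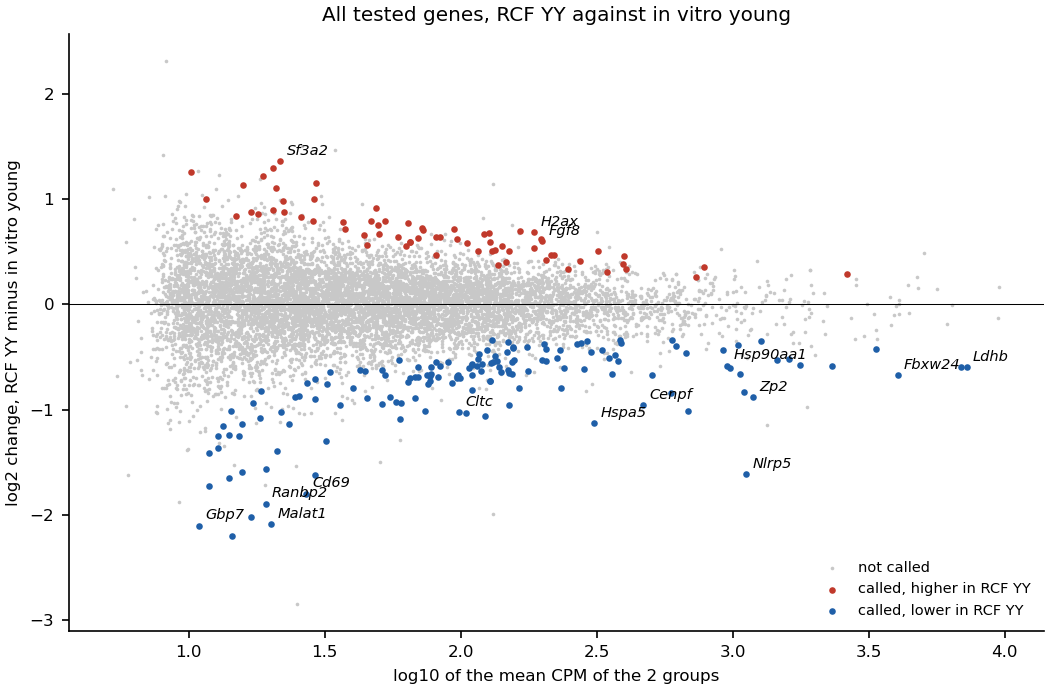
Log2 change of each tested gene, RCF YY minus in vitro young, on the y axis against the log10 of the mean CPM of the groups on the x axis. Red points are the 68 genes called higher in RCF YY, blue points those called lower and grey points the genes not called. The blue points reach further from 0 than the red ones.

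The calls depended on which in vitro young libraries were used. Against in vitro young libraries S162 to S165 alone, 387 genes were called, 123 higher and 264 lower. Against libraries S128 to S149 alone, edgeR called 0 of 9252 tested genes, with 514 at an unadjusted p under 0.05. DESeq2 called 1, Hsp90aa1 (log2 change -0.51 ± 0.10 SE, adjusted p = 0.00689), with 537 of the 9252 genes at an unadjusted p under 0.05. By chance alone a share of about 0.05 of tested genes would have such a p. In the edgeR fit of all libraries 1455 of 8749 genes had one. All 217 genes kept their direction against either series. They had been chosen on libraries that include both series, so a kept direction was largely set in advance. The median size of their changes was 0.745 of the value from all libraries against S128 to S149 and 1.24 of it against S162 to S165. Leaving out in vitro young replicate 5, 6, 7 or 8 alone cut the calls to 114, 126, 125 and 130, while leaving out replicate 3 gave 352. Taking RCF YY libraries S225 to S231 alone gave 803 calls, and S198 to S202 alone gave 99. Of the 217 genes, 187 were also called with S225 to S231 alone and 49 with S198 to S202 alone. Of 87 called genes examined one by one, 58 lost their call with S198 to S202 alone. The 29 that did not were Ranbp2, Cltc, Oog4, Enpp5, Cd69, Hspa5, Dcdc2c, Lcp1, Malat1, Il17f, Zp2, Gdf9, Zp3, Cenpf, Hsp90aa1, Hsp90ab1, Pdia3, Hsp90b1, H2ax, Topbp1, Tpr, Golgb1, Ktn1, Gcc2, Macf1, Sdf4, Ran, Lonp2 and Tfe3. Every call reported below was lost against S128 to S149 alone in edgeR, and each result is to be read with that limit. After each library had been thinned at random to 418703 counts, 76 of 6675 genes were called, 20 higher and 56 lower. Of the 200 called genes that could still be fitted all kept their direction while 66 kept their call. Of the 87 genes examined one by one 83 could be fitted and 42 kept their call. Ranbp2, Hspd1, Hsp90b1, Pdia3, Sdf4, Top2a, Tpr, Akap9, Macf1 and Ran were among those that lost it.

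**Figure D2:**
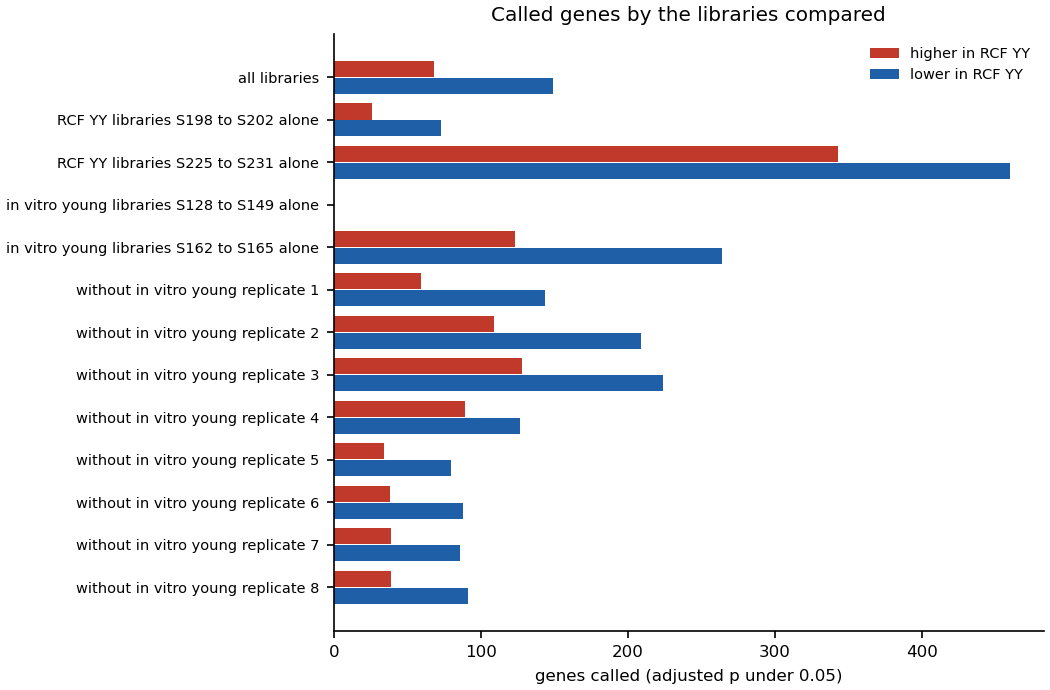
Number of genes called higher (red) and lower (blue) in RCF YY on the x axis, for the fit of all libraries, for each numbering series alone and with each in vitro young replicate left out. The row for in vitro young libraries S128 to S149 has no bars because 0 genes were called.

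Genes of the zona pellucida and egg surface were lower in RCF YY in 4 of 9 tested members and higher in 0. The share called was 44.4%, against 2.48% of all tested genes. The median log2 change was -0.42 against 0.01 over all genes. With RCF YY libraries S198 to S202 alone 2 of the 4 were called, Zp2 and Zp3. Zp2 encodes a glycoprotein of the zona matrix that is bound by sperm and is cleaved after fertilisation (mm39, as all positions but those of promoters, chr7:119725995-119744515). The lowest, median and highest libraries had 616, 816 and 1142 CPM in RCF YY, 974, 1680 and 1962 CPM in in vitro young and 1557, 1857 and 2341 CPM in in vivo young. All 11 RCF YY libraries lay below the in vitro young median and 8 below every in vitro young library, although the groups overlapped (log2 change -0.88 ± 0.12 SE, adjusted p = 4.42e-05). Zp3, another zona glycoprotein (chr5:136008953-136017479), had 2140, 2907 and 3456 CPM in RCF YY and 2489, 4070 and 4554 CPM in in vitro young. For Zp3 the log2 change was -0.42 ± 0.10 SE (adjusted p = 0.00982). Cd9 encodes a tetraspanin of the egg microvilli that is needed for fusion with sperm (chr6:125437229-125471755). It had 136, 175 and 210 CPM in RCF YY and 170.00, 275.3 and 459.8 CPM in in vitro young. For Cd9 the log2 change was -0.79 ± 0.16 SE (adjusted p = 0.00485). Astl encodes ovastacin, the cortical granule protease that cleaves ZP2 (chr2:127180559-127199572), and averaged 426 ± 117 CPM in RCF YY and 762 ± 264 CPM in in vitro young (log2 change -0.84 ± 0.22 SE, adjusted p = 0.0335, SD over 11 and 8 libraries). Zp1, which encodes a crosslinker of the zona filaments, averaged 928 ± 182 CPM in RCF YY and 1322 ± 382 CPM in in vitro young and did not pass (log2 change -0.51 ± 0.15 SE, adjusted p = 0.0627). Fetub, whose product in plasma inhibits ovastacin, had a log2 change of -0.17 (adjusted p = 0.412).

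**Figure D3:**
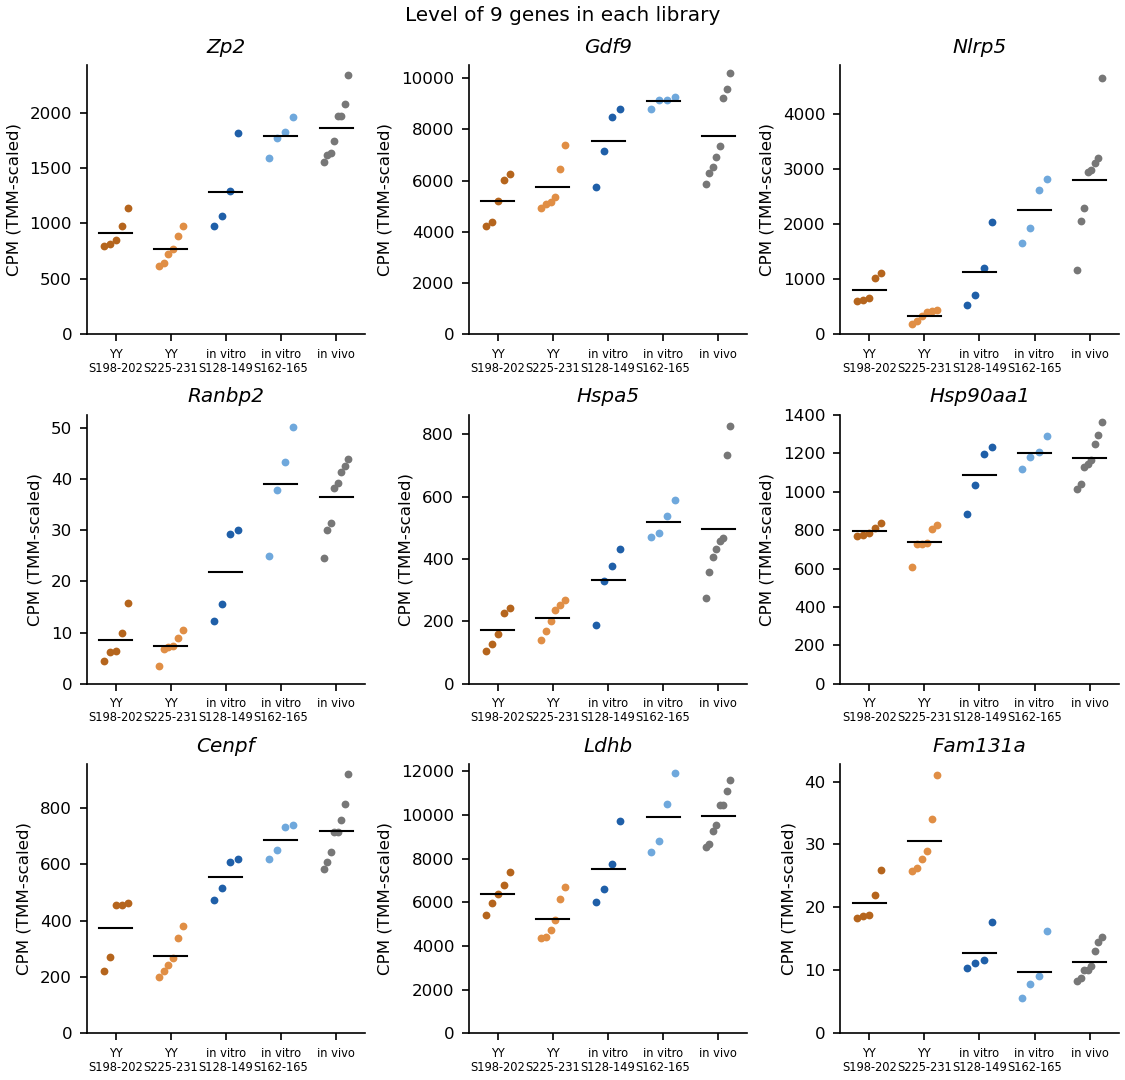
TMM-scaled CPM of 9 genes in each library (points) with the mean of each set of libraries (bars), for RCF YY and in vitro young by library number and for in vivo young. For Zp2, Nlrp5, Ranbp2 and Hspa5 the mean of in vitro young libraries S128 to S149 lies between the mean of either RCF YY series and that of libraries S162 to S165, while single libraries overlap, and for Fam131a all RCF YY libraries lie above all in vitro young libraries.

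In the list of the subcortical maternal complex and its Nlrp relatives, 4 of 12 tested members were lower and 0 higher, with a median log2 change of -0.64. The share called was 33.3%, against 2.48% of all tested genes. The complex is a protein assembly of the egg cortex that embryos need for their first divisions, and Nlrp5 (also MATER) and Padi6 are maternal-effect genes of it. Nlrp5 (chr7:23085314-23141348) had 192, 448 and 1116 CPM in RCF YY, 538, 1798 and 2812 CPM in in vitro young and 1175, 2956 and 4658 CPM in in vivo young. For Nlrp5 the log2 change was -1.61 ± 0.34 SE (adjusted p = 0.00853). Its means were 808 and 339.7 CPM in the RCF YY libraries S198 to S202 and S225 to S231, and 1122 and 2254 CPM in the in vitro young libraries S128 to S149 and S162 to S165. The log2 change was -1.06 with RCF YY libraries S198 to S202 alone and -2.30 with S225 to S231 alone. With S198 to S202 alone 0 genes of the list were called (adjusted p = 0.185 for Nlrp5, 0.162 for Padi6, 0.115 for Nlrp9c and 0.379 for Nlrp9b). Padi6, which encodes a member of the peptidylarginine deiminase family needed for the cytoplasmic lattices of the egg (chr4:140454666-140469955), had 536, 796 and 1291 CPM in RCF YY and 823, 1505 and 1925 CPM in in vitro young. For Padi6 the log2 change was -0.84 ± 0.17 SE (adjusted p = 0.00659). Nlrp9c and Nlrp9b, 2 oocyte-expressed relatives, averaged 772 and 389.6 CPM in RCF YY against 1177 and 617 CPM in in vitro young (log2 changes -0.61 ± 0.12 and -0.67 ± 0.17 SE, adjusted p = 0.00269 and 0.0227). The log2 change of Nlrp9b was -0.31 with S198 to S202 alone and -1.03 with S225 to S231 alone. Its call was lost without in vitro young replicate 5, 7 or 8 (adjusted p up to 0.0737). Nlrp2, Nlrp9a and Nlrp14 had log2 changes of -0.82, -0.999 and -1.15 and did not pass (adjusted p = 0.0979, 0.0594 and 0.0540). Other core members of the complex lay nearer to 0, with Tle6 at -0.21 ± 0.16, Khdc3 at -0.05 ± 0.55 and Ooep at 0.22 ± 0.10 (log2 change, SE), none of them called. Over all 12 tested Nlrp genes of the table, a set taken after the values were seen, 4 were called lower, the fourth being Nlrp4e, and 12 had a log2 change below 0. Reads of near-identical Nlrp9 copies may have been shared out by the counting.

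Among oocyte-secreted factors, junction and contact genes, 1 of 16 tested members was lower and 1 higher, with a median log2 change of 0.09. The share called was 12.5%, against 2.48% of all tested genes. Gdf9 encodes the growth factor through which the oocyte drives granulosa cell growth and cumulus expansion (chr11:53321850-53328732). It had 4247, 5218 and 7396 CPM in RCF YY, 5759, 8812 and 9252 CPM in in vitro young and 5885, 7150 and 10210 CPM in in vivo young. For Gdf9 the log2 change was -0.60 ± 0.11 SE (adjusted p = 0.00195). The RCF YY libraries were all below the in vitro young median, and 7 were below every in vitro young library. Bmp15, its paralog and partner in the heterodimer, averaged 2997 ± 442 CPM in RCF YY and 3763 ± 684 CPM in in vitro young and did not pass (log2 change -0.33 ± 0.11 SE, adjusted p = 0.0818). Fgf8, a fibroblast growth factor through which the oocyte promotes glycolysis in cumulus cells together with BMP15 (chr19:45725237-45731355), was higher, with 108, 226.4 and 349 CPM in RCF YY and 115, 159 and 195 CPM in in vitro young. For Fgf8 the log2 change was 0.60 ± 0.16 SE (adjusted p = 0.0335). It was 0.29 with RCF YY libraries S198 to S202 alone (adjusted p = 0.458), 0.82 with S225 to S231 alone and 0.26 with an offset for transcript GC content and length (adjusted p = 0.306). Its call was lost in 7 of 19 fits that left out 1 library each (adjusted p up to 0.084). Gja4, the connexin of the oocyte side of the gap junctions, averaged 584 ± 67.6 CPM in RCF YY and 492.9 ± 75.3 CPM in in vitro young and was not called (adjusted p = 0.202). Cdh1, the cadherin that joins oocyte and granulosa cell, had a log2 change of 0.32 ± 0.12 SE (adjusted p = 0.157).

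Over the 18 defining oocyte genes 4 were lower, Zp2, Zp3, Gdf9 and Nlrp5, and 1 was higher. The share called was thus 27.8%, against 2.48% of all tested genes. The 4 lower genes were already counted in the lists above. The higher one was Mos, the kinase that starts the MAPK cascade of meiotic maturation and holds the egg in metaphase II (chr4:3870657-3872106). It had 699, 817 and 849.6 CPM in RCF YY, 614, 656 and 777 CPM in in vitro young and 543, 603 and 633 CPM in in vivo young. For Mos the log2 change was 0.26 ± 0.07 SE (adjusted p = 0.0361). The call was lost in 5 of 19 fits that left out 1 library (adjusted p up to 0.0922), and also with an offset for transcript GC content and length. Of 14 oocyte transcription factors 1 was higher (7.14%), Pou5f1 (OCT4), a pluripotency factor also stored in eggs. It had 4.31, 26.4 and 37.2 CPM in RCF YY and 8.90, 13.0 and 25.9 CPM in in vitro young. For Pou5f1 the log2 change was 0.90 ± 0.26 SE (adjusted p = 0.0498). It lay just inside the threshold and lost its call in 14 of those 19 fits (adjusted p up to 0.124). The regulators Nobox (-0.08), Figla (0.01) and Lhx8 (0.14) had small log2 changes and were not called. Of 21 genes of mRNA deadenylation and decay 1 was higher (4.76%, near the 2.48% of all tested genes). This was Dcp2, the decapping enzyme, which averaged 126 ± 25.7 CPM in RCF YY and 85.0 ± 28.9 CPM in in vitro young (log2 change 0.58 ± 0.16 SE, adjusted p = 0.0403) and lost its call in 8 of the 19 fits (adjusted p up to 0.111). Against in vitro young libraries S162 to S165 alone its log2 change was 0.98, and against S128 to S149 alone 0.26.

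The endoplasmic reticulum list holds the chaperones and disulfide isomerases that fold proteins for secretion, and the sensors and factors of the unfolded protein response, which raise those chaperones when folding fails. Of 19 tested members 4 were lower and 0 higher (21.1%, against 2.48% of all tested genes). All 4 are folding factors, while the list's median log2 change was -0.05. Hspa5 (BiP), the HSP70 chaperone of the endoplasmic reticulum (chr2:34661982-34667560), had 104, 200.4 and 269.4 CPM in RCF YY, 189, 450.2 and 589 CPM in in vitro young and 274.7, 444 and 826 CPM in in vivo young. For Hspa5 the log2 change was -1.13 ± 0.21 SE (adjusted p = 0.00334). All 11 RCF YY libraries were below the in vitro young median, and 5 were below every in vitro young library. Hsp90b1, the HSP90 chaperone of that compartment (chr10:86526073-86541374), had 57.2, 98.5 and 109 CPM in RCF YY and 96.4, 147 and 186 CPM in in vitro young. For Hsp90b1 the log2 change was -0.64 ± 0.14 SE (adjusted p = 0.00785). Pdia3 (chr2:121244256-121269169) and Pdia6 (chr12:17316546-17334772) encode disulfide isomerases. Pdia3 averaged 118 ± 18.1 CPM in RCF YY and 182 ± 37.0 CPM in in vitro young (log2 change -0.62 ± 0.14 SE, adjusted p = 0.00713), and Pdia6 96.0 ± 23.6 CPM in RCF YY and 143 ± 25.4 CPM in in vitro young (log2 change -0.57 ± 0.15 SE, adjusted p = 0.0264). The lectin chaperones Calr (log2 change -0.36 ± 0.11 SE, adjusted p = 0.0576) and Canx (-0.28 ± 0.13, adjusted p = 0.270) did not pass. The sensor gene Ern1, the transducers Atf6 and Atf4 and the stress gene Ddit3 had log2 changes of 0.36, 0.27, -0.59 and 0.20 and were not called (adjusted p = 0.137, 0.444, 0.108 and 0.568). Sdf4 and Kdelr2, chosen after their values were seen, differed in direction. Sdf4, a calcium-binding protein of the Golgi, averaged 31.8 ± 11.4 CPM in RCF YY and 58.9 ± 12.2 CPM in in vitro young (log2 change -0.89 ± 0.20 SE, adjusted p = 0.00982), and Kdelr2, a receptor that returns chaperones from the Golgi, 117 ± 28.8 CPM in RCF YY and 71.4 ± 16.5 CPM in in vitro young (log2 change 0.72 ± 0.16 SE, adjusted p = 0.00853).

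Because chaperone genes of this compartment share a known promoter element, the 250 bases before the RefSeq start of Hspa5, Hsp90b1 and Pdia6 are shown (build GRCm38.p6, which differs from the mm39 of the counts). The element is the endoplasmic reticulum stress response element, CCAAT followed after 9 bases of any kind by CCACG. NF-Y binds its CCAAT part and ATF6 its CCACG part. Capitals mark each match on either strand. Each sequence is given 5′ to 3′ in the direction of the gene, from chr2:34771840-34772089 (+ strand) for Hspa5, chr10:86705445-86705694 (- strand) for Hsp90b1 and chr12:17266339-17266588 (+ strand) for Pdia6.
Hspa5: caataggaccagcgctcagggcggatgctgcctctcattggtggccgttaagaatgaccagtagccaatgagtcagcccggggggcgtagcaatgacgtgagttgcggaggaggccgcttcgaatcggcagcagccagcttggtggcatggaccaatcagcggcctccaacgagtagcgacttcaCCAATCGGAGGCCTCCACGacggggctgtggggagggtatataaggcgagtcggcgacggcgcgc
Hsp90b1: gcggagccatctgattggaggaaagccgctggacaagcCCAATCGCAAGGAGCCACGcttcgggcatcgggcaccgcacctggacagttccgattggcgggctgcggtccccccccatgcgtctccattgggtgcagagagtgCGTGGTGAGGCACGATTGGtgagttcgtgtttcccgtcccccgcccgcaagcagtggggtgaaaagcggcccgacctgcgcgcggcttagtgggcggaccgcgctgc
Pdia6: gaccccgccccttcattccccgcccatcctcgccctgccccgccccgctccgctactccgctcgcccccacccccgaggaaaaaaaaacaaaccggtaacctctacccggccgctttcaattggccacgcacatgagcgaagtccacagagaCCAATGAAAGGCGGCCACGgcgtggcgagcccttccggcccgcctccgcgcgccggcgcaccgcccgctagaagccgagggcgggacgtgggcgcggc
The first base of the match lies 65 bases before the start in Hspa5 and 98 in Pdia6. In Hsp90b1 there are 2 matches, 212 bases before the start on the sense strand and 107 bases before it on the other strand. The element was found in 37 of 32851 promoter windows of this length (0.113%) and in 18 of the 6434 tested genes that have a window (0.28%). It was present in 3 of the 113 genes called lower that have a window (2.65%), which are the 3 shown, and in 0 of the 44 called higher. On the endoplasmic reticulum list 6 of 23 genes with a window held it (26.1%). The other members with a match were Dnajc3, Calr and Canx, with log2 changes of 0.07, -0.36 and -0.28, none called. A match says that these letters are in the window, not that a factor bound there.

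Among cytosolic chaperones and heat shock genes 4 of 18 tested members were lower and 0 higher, with a median log2 change of -0.14. The share called was 22.2%, against 2.48% of all tested genes. Hsp90aa1 and Hsp90ab1 encode the inducible and the constitutive cytosolic HSP90, which holds kinases and receptors in shape. Hsp90aa1 (chr12:110657039-110669163) had 608, 774 and 839 CPM in RCF YY, 882, 1190 and 1290.00 CPM in in vitro young and 1012, 1155 and 1363 CPM in in vivo young, so that no RCF YY library reached the lowest library of the other groups (log2 change -0.58 ± 0.08 SE, adjusted p = 4.42e-05). It was lower in each numbering series, with log2 changes of -0.53 and -0.62 for the RCF YY libraries S198 to S202 and S225 to S231, and of -0.51 and -0.65 against the in vitro young libraries S128 to S149 and S162 to S165. Hsp90ab1 (chr17:45878701-45884198) ran from 182 to 354 CPM in RCF YY and from 374 to 534 CPM in in vitro young, again with no overlap. For Hsp90ab1 the log2 change was -0.67 ± 0.11 SE (adjusted p = 0.000511). Hspd1, the HSP60 of the mitochondrial matrix (chr1:55116994-55127403), averaged 60.0 ± 16.4 CPM in RCF YY and 95.4 ± 13.3 CPM in in vitro young (log2 change -0.66 ± 0.15 SE, adjusted p = 0.00853), and stood at 66.7 ± 12.7 CPM in in vivo young. Tcp1, a subunit of the CCT ring that folds actin and tubulin (chr17:13134588-13143955), averaged 139 ± 35.1 CPM in RCF YY and 214 ± 42.2 CPM in in vitro young (log2 change -0.63 ± 0.15 SE, adjusted p = 0.0119). Its log2 change was -0.37 with RCF YY libraries S198 to S202 alone (adjusted p = 0.270) and -0.87 with S225 to S231 alone. Another CCT subunit, Cct7, chosen after its values were seen, was also lower (log2 change -0.70 ± 0.18 SE, adjusted p = 0.0306), and all 7 tested CCT subunits had log2 changes below 0, with a median of -0.32. The call of Cct7 was lost in 7 of the 19 fits that left out 1 library (adjusted p up to 0.115). Hspa8 (-0.02), Dnajb1 (0.01), Dnaja1 (0.11) and Hspe1 (0.03) had log2 changes near 0. Hsf1, the transcription factor of the heat shock response and a maternal-effect gene in the mouse, averaged 148.7 ± 29.5 CPM in RCF YY and 107 ± 27.6 CPM in in vitro young (log2 change 0.48 ± 0.14 SE, adjusted p = 0.0545).

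**Figure D4:**
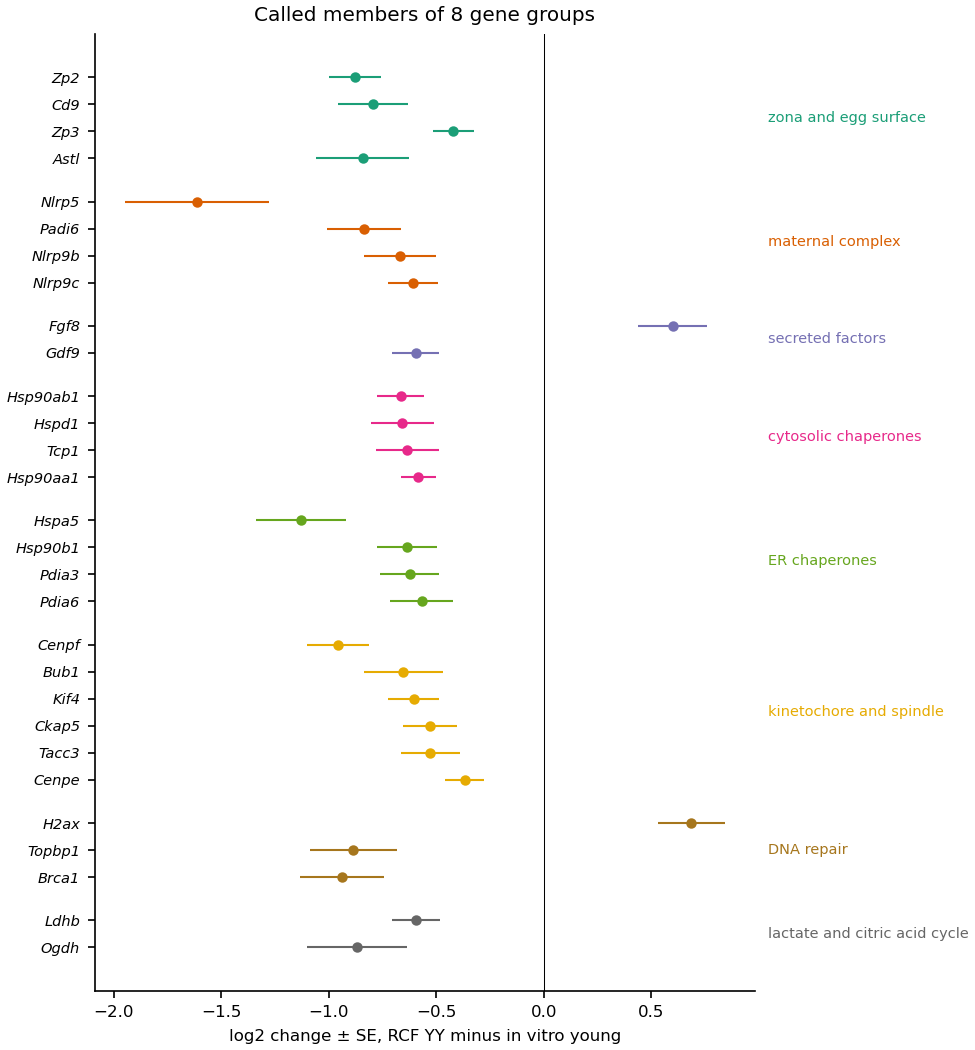
Log2 change, RCF YY minus in vitro young, of called members of 8 groups of genes (points) with its SE (lines), on the x axis, and the genes on the y axis. Fgf8 and H2ax lie above 0 and the other genes shown lie below it, with Nlrp5 at -1.61 furthest out.

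Of 28 kinetochore, checkpoint and passenger complex genes 3 were lower and 0 higher (median log2 change -0.03), and of 28 spindle pole, kinesin and actin genes 3 were lower and 0 higher (median -0.15). The share called was 10.7% in either list, against 2.48% of all tested genes. Cenpf and Cenpe encode very long proteins of the outer kinetochore, Cenpe being a kinesin that moves chromosomes to the spindle equator. Cenpf (chr1:189372803-189420284) had 198.7, 269.6 and 463 CPM in RCF YY, 472, 618 and 737 CPM in in vitro young and 584, 715 and 918 CPM in in vivo young, with every RCF YY library below every library of the other groups (log2 change -0.96 ± 0.14 SE, adjusted p = 0.000205). Cenpe (chr3:134918298-134979373) had 256, 348 and 418 CPM in RCF YY and 361, 429 and 524 CPM in in vitro young. For Cenpe the log2 change was -0.37 ± 0.09 SE (adjusted p = 0.0188), and its call was lost without in vitro young replicate 6 or 7 (adjusted p up to 0.0743). Bub1, a kinase of the spindle checkpoint, averaged 116 ± 36.0 CPM in RCF YY and 184 ± 46.1 CPM in in vitro young (log2 change -0.65 ± 0.18 SE, adjusted p = 0.0474) and lost its call in 12 of 19 fits (adjusted p up to 0.125). The remaining checkpoint genes Bub1b, Mad2l1 and Ttk had log2 changes of 0.17, -0.06 and -0.08, and the passenger genes Aurkc, Incenp and Birc5 of -0.16, 0.13 and -0.03, none called. Kif4, a chromokinesin (chrX:99669343-99770821), had 135, 199.6 and 259 CPM in RCF YY and 222, 289 and 350.2 CPM in in vitro young. For Kif4 the log2 change was -0.60 ± 0.12 SE (adjusted p = 0.00334). Ckap5 and Tacc3 encode partners that stabilise microtubules at spindle poles. Ckap5 (chr2:91357107-91451010) averaged 128.9 ± 19.9 CPM in RCF YY and 186 ± 38.9 CPM in in vitro young (log2 change -0.53 ± 0.13 SE, adjusted p = 0.0141), and Tacc3 (chr5:33815472-33836340) 1197 ± 309 CPM in RCF YY and 1723 ± 288 CPM in in vitro young (log2 change -0.53 ± 0.14 SE, adjusted p = 0.0326), Tacc3 being without a call in 8 of 19 fits (adjusted p up to 0.0909). The log2 change of Tacc3 was -0.25 with RCF YY libraries S198 to S202 alone (adjusted p = 0.380) and -0.79 with S225 to S231 alone (adjusted p = 0.00109). Top2a, the topoisomerase that untangles chromosomes, and Mki67, which coats them in mitosis, were chosen after their values were seen and were also lower (-0.68 ± 0.16 and -0.47 ± 0.12 SE on the log2 scale, adjusted p = 0.0148 and 0.0188). The call of Mki67 was lost without in vitro young replicate 5, 6 or 7 (adjusted p up to 0.0644). With the offset for transcript GC content and length, 1 of the 3 kinetochore calls was left, Cenpf (log2 change -0.83), and all 3 spindle pole and kinesin calls were kept.

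Of 25 DNA damage and repair genes 2 were lower and 1 higher (12%, against 2.48% of all tested genes), with a median log2 change of -0.18. Brca1 (chr11:101379590-101442782), which acts in repair by homologous recombination, had 18.2, 45.2 and 66.8 CPM in RCF YY and 47.9, 78.7 and 107 CPM in in vitro young. For Brca1 the log2 change was -0.94 ± 0.20 SE (adjusted p = 0.00485). Topbp1 (chr9:103182414-103227628), an activator of the ATR kinase, averaged 47.5 ± 21.6 CPM in RCF YY and 88.3 ± 24.8 CPM in in vitro young (log2 change -0.89 ± 0.20 SE, adjusted p = 0.0107). Its log2 change was -1.34 with RCF YY libraries S198 to S202 alone (adjusted p = 0.00312) and -0.60 with S225 to S231 alone (adjusted p = 0.0724). H2ax (chr9:44245991-44247375), the histone variant phosphorylated around double-strand breaks, was higher, with 185, 217 and 318 CPM in RCF YY, 86.6, 136 and 213 CPM in in vitro young and 123, 206 and 279.7 CPM in in vivo young. For H2ax the log2 change was 0.69 ± 0.16 SE (adjusted p = 0.0105). The in vivo young libraries overlapped both of the other groups. With the offset for GC content and length H2ax was not called (log2 change 0.42, adjusted p = 0.229). Of 27 histone-modifying and remodelling genes 1 was lower (3.7%, near the 2.48% of all tested genes). This was Ezh2, the methyltransferase of Polycomb complex 2, at 528 ± 50.9 CPM in RCF YY and 665 ± 90.4 CPM in in vitro young (log2 change -0.33 ± 0.08 SE, adjusted p = 0.0197). Its call was lost without in vitro young replicate 2, 7 or 8 (adjusted p up to 0.0661). Of 12 small RNA and transposon control genes 1 was lower (8.33%), Tdrd1, a Tudor protein of the piRNA pathway (log2 change -0.45 ± 0.12 SE, adjusted p = 0.0289), without a call in 8 of 19 fits (adjusted p up to 0.0756).

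Of 27 genes of glycolysis, lactate and pyruvate use and the citric acid cycle 2 were lower and 0 higher, with a median log2 change of -0.02. The share called was 7.41%, against 2.48% of all tested genes. Ldhb encodes the lactate dehydrogenase subunit that predominates in oocytes, which burn pyruvate and lactate rather than glucose (chr6:142435975-142453684). It had 4376, 5960 and 7393 CPM in RCF YY, 6025, 8552 and 11940 CPM in in vitro young and 8509, 10000 and 11610 CPM in in vivo young. For Ldhb the log2 change was -0.59 ± 0.11 SE (adjusted p = 0.00199). All RCF YY libraries were below the in vitro young median, and 6 were below every in vitro young library. Ogdh, a subunit of the 2-oxoglutarate dehydrogenase of the citric acid cycle, averaged 17.9 ± 7.81 CPM in RCF YY and 32.8 ± 11.1 CPM in in vitro young (log2 change -0.87 ± 0.23 SE, adjusted p = 0.0344) and lost its call in 10 of 19 fits (adjusted p up to 0.0905). Its log2 change was -0.45 with RCF YY libraries S198 to S202 alone (adjusted p = 0.453) and -1.29 with S225 to S231 alone (adjusted p = 0.00266). The pyruvate carrier genes Mpc1 and Mpc2 and the lactate transporter gene Slc16a1 had log2 changes of 0.70 ± 0.23, 0.38 ± 0.14 and 0.78 ± 0.31 SE and were not called. Of 55 nuclear-encoded oxidative phosphorylation genes 0 were called by edgeR, DESeq2 or limma voom, with a median log2 change of 0.02. In edgeR 7 of the 55 had an unadjusted p under 0.05, a smaller share than the 1455 of all 8749 tested genes. Of 9 tested mRNAs encoded in the mitochondrial genome 0 were called by any of these tools, 0 had an unadjusted p under 0.05, and 8 lay above 0, with a median log2 change of 0.29, for example mt-Nd1 at 0.47 ± 0.46 and mt-Co1 at 0.04 ± 0.40 SE. Those mRNAs made up 0.0135%, 0.099% and 0.266% of counts in the lowest, median and highest RCF YY library and 0.0473%, 0.108% and 0.158% in in vitro young (means 0.115% and 0.106%, exact two-sided permutation test over 75582 relabellings, p = 0.791). Within RCF YY the share averaged 0.049% in libraries S198 to S202 and 0.169% in S225 to S231, so its direction against in vitro young turned with the series.

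Other lists gave single calls, at 5% to 6.25% of their tested members, where 2.48% of all tested genes were called. Mtor, the kinase that drives translation and growth (chr4:148533068-148642141), averaged 25.8 ± 9.20 CPM in RCF YY and 40.1 ± 4.41 CPM in in vitro young (log2 change -0.64 ± 0.18 SE, adjusted p = 0.0415) and was the only gene called among 17 of the Kit, PI3K and mTOR pathway and among 20 regulators of maternal mRNA translation. It lost its call in 13 of 19 fits (adjusted p up to 0.0945). Itpr1, the calcium release channel that carries the calcium waves of egg activation, averaged 17.6 ± 6.57 CPM in RCF YY and 31.6 ± 10.1 CPM in in vitro young and 54.9 ± 13.1 CPM in in vivo young. For Itpr1 the log2 change was -0.88 ± 0.21 SE (adjusted p = 0.0165), and the call was lost without in vitro young replicate 5 or 6 (adjusted p up to 0.0682). Ctsb, a lysosomal cysteine protease and the only gene called among 20 of autophagy and lysosome, averaged 75.6 ± 16.0 CPM in RCF YY and 122 ± 26.3 CPM in in vitro young (log2 change -0.70 ± 0.16 SE, adjusted p = 0.00981). In 19 lists edgeR called 0 tested genes, although 39 had an unadjusted p under 0.05, while DESeq2 called 5 and limma voom 13. The 19 lists include cytosolic ribosomal proteins (38 tested, median log2 change 0.08), proteasome subunits (31, -0.04), antioxidant and redox genes (20, 0.12), apoptosis and p53 pathway genes (13, 0.09), plasma membrane repair and ESCRT genes (15, -0.08), cholesterol and lipid genes (15, -0.03), meiotic cohesin and its protectors (12, -0.09), condensin (7, -0.28), DNA methylation genes (10, -0.18) and hypoxia response genes (10, -0.02). They were not equally quiet. In edgeR 4 of the 7 condensin genes and 6 of the 10 DNA methylation genes had an unadjusted p under 0.05. Both are larger shares than the 1455 of all 8749 tested genes. DESeq2 called 1 and 2 of them, and limma voom 2 and 2. The lowest log2 change among the DNA methylation genes was -1.14. Of 20 immediate early genes, which respond within minutes to handling in many cells, 2 passed the filter and neither was called. Summed over the list these genes stood at 213 to 396 CPM in RCF YY and 182 to 341 CPM in in vitro young.

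Among called genes at least 2-fold lower that met the conditions for naming, the 15 with the smallest p were taken. All of them had at least 10 of 11 RCF YY libraries below the in vitro young median, which this choice largely set in advance. Ranbp2 (chr10:58282742-58330179), a giant nucleoporin of the cytoplasmic filaments of the nuclear pore, had 3.41, 7.29 and 15.7 CPM in RCF YY, 12.2, 29.6 and 50.2 CPM in in vitro young and 24.6, 38.7 and 43.9 CPM in in vivo young. For Ranbp2 the log2 change was -1.89 ± 0.25 SE (adjusted p = 4.42e-05). In all, 10 RCF YY libraries were below every in vitro young library. At such levels an RCF YY library holds few reads of it, and after thinning to equal depth the log2 change was -1.30 and no longer called (adjusted p = 0.106). Cltc, the clathrin heavy chain of coated vesicles and of the spindle (chr11:86585177-86648392), had 38.6, 62.5 and 86.7 CPM in RCF YY and 76.8, 144 and 167 CPM in in vitro young. For Cltc the log2 change was -1.02 ± 0.16 SE (adjusted p = 0.000205). Oog4 (chr4:143163734-143176895), of the PRAME family and expressed in oocytes, had 293, 430.1 and 707 CPM in RCF YY and 586, 949.5 and 1271 CPM in in vitro young. For Oog4 the log2 change was -1.02 ± 0.16 SE (adjusted p = 0.000445). Enpp5 (chr17:44389704-44397459), of the ectonucleotide pyrophosphatase family, averaged 68.6 ± 21.3 CPM in RCF YY and 140.4 ± 37.6 CPM in in vitro young (log2 change -1.03 ± 0.18 SE, adjusted p = 0.00107), and the zinc finger gene Zfp473 14.4 ± 5.31 CPM in RCF YY and 43.6 ± 25.8 CPM in in vitro young (log2 change -1.62 ± 0.32 SE, adjusted p = 0.00465).

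Several of the lower genes are known from blood cells in adult mice. Cd69 (chr6:129244288-129252400), an activation antigen of lymphocytes, had 3.06, 8.72 and 36.0 CPM in RCF YY and 21.8, 43.2 and 64.9 CPM in in vitro young. For Cd69 the log2 change was -1.80 ± 0.34 SE (adjusted p = 0.00317). Lcp1, an actin bundler of leukocytes, averaged 6.61 ± 6.43 CPM in RCF YY and 27.3 ± 15.3 CPM in in vitro young (log2 change -2.02 ± 0.42 SE, adjusted p = 0.00660). Btk, a kinase of B cells, averaged 14.9 ± 4.87 CPM in RCF YY and 32.0 ± 7.98 CPM in in vitro young (log2 change -1.14 ± 0.25 SE, adjusted p = 0.00838), and Il17f, a cytokine, 9.61 ± 7.05 CPM in RCF YY and 28.8 ± 16.7 CPM in in vitro young (log2 change -1.56 ± 0.36 SE, adjusted p = 0.0114). In in vivo young oocytes the means were 35.0, 33.1, 43.5 and 31.3 CPM for Cd69, Lcp1, Btk and Il17f, each above its RCF YY mean. Of the 10 immune cell markers Ptprc, which encodes the common leukocyte antigen, Lyz2, Tyrobp, Adgre1, C1qa and C1qc were at 0 in all RCF YY and in vitro young libraries. The other markers, Cd68, C1qb, Csf1r and Cd74, had counts in either group. The list summed to 3.52 to 20.8 CPM in RCF YY and 9.09 to 22.8 CPM in in vitro young. Only 1 marker was tested, and it was not called (log2 change -0.24). Gbp7, an interferon-inducible GTPase, averaged 4.13 ± 2.80 CPM in RCF YY and 17.7 ± 15.6 CPM in in vitro young (log2 change -2.10 ± 0.43 SE, adjusted p = 0.00465), with in vitro young replicate 6 at 53.6 CPM and the next library at 21.9 CPM. Without replicate 6 its log2 change was -1.59. Malat1, a nuclear long non-coding RNA, had 0, 4.31 and 24.1 CPM in RCF YY, 11.7, 38.2 and 57.6 CPM in in vitro young and 3.41, 15.4 and 26.4 CPM in in vivo young. For Malat1 the log2 change was -2.09 ± 0.45 SE (adjusted p = 0.00838), and the in vivo young median lay between those of the other groups. The log2 change of Malat1 was -3.24 with RCF YY libraries S198 to S202 alone (adjusted p = 0.00441) and -1.59 with S225 to S231 alone (adjusted p = 0.0519). Dcdc2c averaged 18.3 ± 8.76 CPM in RCF YY and 45.4 ± 25.8 CPM in in vitro young (log2 change -1.30 ± 0.27 SE, adjusted p = 0.00485). Arpc1a, a subunit of the ARP2/3 actin nucleator, averaged 8.30 ± 2.07 CPM in RCF YY and 18.5 ± 7.21 CPM in in vitro young (log2 change -1.15 ± 0.27 SE, adjusted p = 0.0130) and lost its call without in vitro young replicate 7 (adjusted p = 0.0513). Hspa5 and Nlrp5, described above, complete the 15.

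In the other direction 6 genes met the same conditions. The 15 lower genes were the most that the rule allowed, so the numbers 15 and 6 are not to be compared. The condition on counts is also harder to meet at the lower depth of RCF YY. Fam131a (chr16:20511991-20521799) had 18.4, 25.9 and 41.0 CPM in RCF YY, 5.56, 10.8 and 17.7 CPM in in vitro young and 8.31, 10.4 and 15.3 CPM in in vivo young, with no overlap of RCF YY and either group (log2 change 1.22 ± 0.22 SE, adjusted p = 0.00161). Mier2 (chr10:79376079-79391034), a partner of histone deacetylases, had 11.7, 29.8 and 49.6 CPM in RCF YY and 6.99, 11.1 and 19.8 CPM in in vitro young. For Mier2 the log2 change was 1.29 ± 0.25 SE (adjusted p = 0.00339). Sf3a2 (chr10:80634032-80640759), a subunit of the U2 snRNP factor SF3A, had 19.9, 23.7 and 49.5 CPM in RCF YY and 5.56, 10.6 and 26.7 CPM in in vitro young. It was the only gene called among 24 of the core spliceosome (4.17%, near the 2.48% of all tested genes). For Sf3a2 the log2 change was 1.36 ± 0.29 SE (adjusted p = 0.00487). Its log2 change was 0.89 with RCF YY libraries S198 to S202 alone and 1.66 with S225 to S231 alone, and it was not called with S198 to S202. Slc9a3r1 (NHERF1), a scaffold that ties membrane proteins to ezrin, averaged 28.6 ± 9.25 CPM in RCF YY and 13.3 ± 6.63 CPM in in vitro young (log2 change 1.11 ± 0.25 SE, adjusted p = 0.0107), and Zc3h3, a factor of mRNA export, 14.5 ± 4.94 CPM in RCF YY and 5.93 ± 2.39 CPM in in vitro young (log2 change 1.25 ± 0.29 SE, adjusted p = 0.0111). Ttyh3, of the tweety family of membrane proteins, averaged 40.2 ± 24.1 CPM in RCF YY and 18.5 ± 7.39 CPM in in vitro young (log2 change 1.15 ± 0.32 SE, adjusted p = 0.0416) and lost its call in 11 of 19 fits (adjusted p up to 0.105). Its mean was 22.7 CPM in RCF YY libraries S198 to S202 and 54.8 CPM in S225 to S231, against 22.9 and 14.02 CPM in in vitro young libraries S128 to S149 and S162 to S165. The log2 change was 0.32 with RCF YY S198 to S202 alone (adjusted p = 0.699) and 1.59 with S225 to S231 alone. After thinning to equal depth none of the 6 genes kept a call. Fam131a, Mier2, Sf3a2, Slc9a3r1 and Ttyh3 then had log2 changes of 1.30, 1.12, 1.45, 0.73 and 1.56. Their adjusted p-values were 0.108, 0.279, 0.0857, 0.575 and 0.0857, and Zc3h3 could not be fitted. Higher genes of smaller change, chosen after their values were seen, include Gadd45gip1, a component of the mitochondrial ribosome (log2 change 0.77 ± 0.16 SE, adjusted p = 0.00456), and Tfe3, a transcription factor of lysosomal genes (log2 change 0.63 ± 0.13 SE, adjusted p = 0.00485). After thinning to equal depth neither was called (log2 changes 0.45 and 0.45, adjusted p = 0.355 and 0.292).

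Families of genes were looked at after the values were seen, and are described by their counts. These are to be read beside the 2.48% of all tested genes that were called. All 15 tested Fbxw genes of chromosome 9, an oocyte-expressed cluster of F-box genes, had a log2 change below 0 (median -0.48, from -0.67 to -0.29), and 9 were called. Fbxw24 (chr9:109430184-109455126) had 2062, 3069 and 4267 CPM in RCF YY and 3473, 5035 and 6543 CPM in in vitro young. For Fbxw24 the log2 change was -0.67 ± 0.12 SE (adjusted p = 0.00107). For Fbxw23 (chr9:109345456-109363927) the groups did not overlap, with 72.01, 118 and 159 CPM in RCF YY and 162.6, 178 and 259.8 CPM in in vitro young. For Fbxw23 the log2 change was -0.66 ± 0.13 SE (adjusted p = 0.00383). The copies are alike in sequence and reads may have been shared out between them, so the 15 values are not independent. Fbxw24 had a log2 change of -0.40 with RCF YY libraries S198 to S202 alone and of -0.94 with S225 to S231 alone, and Fbxw19 of -0.26 and -0.90. None of the 9 was called with S198 to S202 alone (0 of 9, adjusted p from 0.0684 for Fbxw24 to 0.687 for Fbxw20), and all 9 were called with S225 to S231 alone. Over all libraries, the calls of 7 of the 9 were lost when at least 1 library was left out, those of Fbxw24 and Fbxw23 being kept.

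Long coiled-coil proteins of the Golgi and cytoskeleton were lower in 5 of 10 tested members, with a median log2 change of -0.48. The set held genes with Golg symbols and, added by name after the values were seen, Gcc1, Gcc2, Ktn1, Akap9 and Macf1. Golgb1 was the only called member with a Golg symbol. The count and the median therefore follow in part from the choice of members and say nothing about such proteins in general. Golgb1 (giantin, chr16:36695502-36753448) had 35.7, 55.4 and 75.5 CPM in RCF YY and 80.2, 93.3 and 115 CPM in in vitro young, with no overlap (log2 change -0.76 ± 0.13 SE, adjusted p = 0.00107). Akap9, a scaffold of the Golgi and centrosome, averaged 40.3 ± 13.3 CPM in RCF YY and 75.6 ± 16.2 CPM in in vitro young (log2 change -0.92 ± 0.16 SE, adjusted p = 0.00107). Ktn1, a kinesin receptor, Gcc2, a golgin, and Macf1, which links actin to microtubules, had log2 changes of -0.61 ± 0.11, -0.73 ± 0.14 and -0.96 ± 0.19 SE (adjusted p = 0.00161, 0.00334 and 0.00345). Of 20 nucleoporin genes 2 were lower, Ranbp2 and Tpr, which forms the basket filaments of the pore (63.4 ± 15.4 CPM in RCF YY and 102 ± 14.6 CPM in in vitro young, log2 change -0.69 ± 0.13 SE, adjusted p = 0.00317). The median over the 20 was -0.12. This set held genes with Nup symbols, to which Ranbp2 and Tpr were added by name after the values were seen. No gene with a Nup symbol was called, so the count follows from the choice of members. Ran, chosen after its values were seen, is the small GTPase that RANBP2 binds and that drives nuclear transport and spindle assembly. It averaged 35.1 ± 10.8 CPM in RCF YY and 67.3 ± 18.4 CPM in in vitro young (log2 change -0.94 ± 0.19 SE, adjusted p = 0.00339). Of 12 eIF3 subunits 2 were lower, Eif3c (-0.57 ± 0.12 SE) and Eif3a (-0.53 ± 0.14 SE), with a median of -0.0043 over the 12, and Eif3a lost its call in 12 of 19 fits (adjusted p up to 0.129).

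The genes that were called differed in base composition and length from the rest. The median GC content of the longest annotated transcript was 55.3% for genes called higher, 45.4% for genes called lower and 48.0% for all tested genes, and the median length 2671, 3675 and 3114 bases. When tested genes were split by GC content into 5 bins of equal size, the median log2 change was -0.03, -0.06, -0.03, 0.03 and 0.16 with rising GC content. The bin of highest GC content held 40 of the 68 genes called higher and 10 of the genes called lower. An offset per library for GC content and length left 218 genes called, 75 higher and 143 lower, and 161 of the 217 genes kept their call, at a median 0.917 of their size. Among genes named above, Mos, Fgf8, Pou5f1, Ttyh3, H2ax, Cenpe, Bub1, Ezh2, Mki67, Eif3a and Fbxw20 lost their call with it. Of the 9 called Fbxw genes of chromosome 9, 3 lost their call with the offset, Fbxw13, Fbxw20 and Fbxw22. The part of GC content and length in the other results was not tested further, and that of level was not tested.

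**Figure D5:**
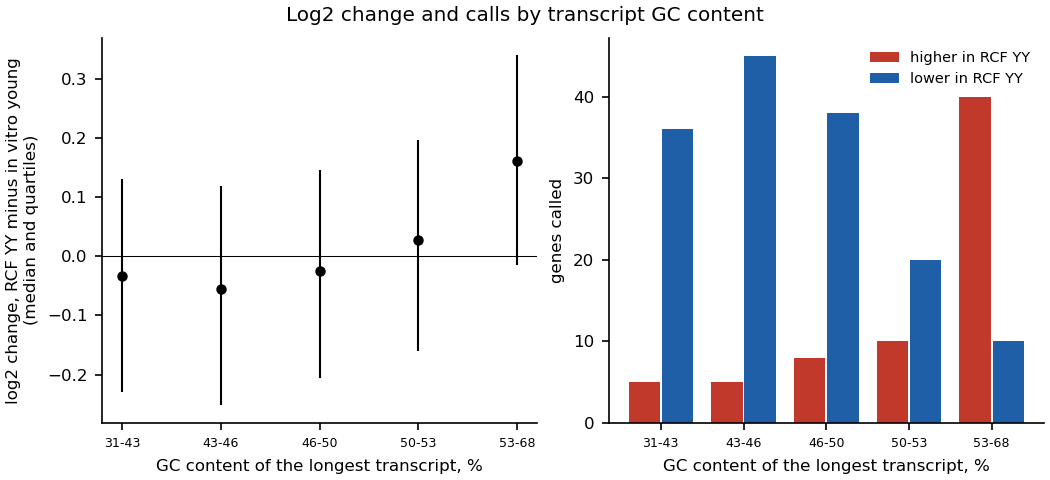
Tested genes in 5 bins of transcript GC content on the x axis. The left panel gives the median log2 change, RCF YY minus in vitro young, with quartiles as lines, and the right panel the genes called higher (red) and lower (blue). The bin of highest GC content has a median of 0.16 and 40 genes called higher.

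To describe the libraries as wholes, 4 values per library were compared over the 19 libraries with exact two-sided permutation tests (75582 relabellings), adjusted over the 4 tests. The share of the 50 most abundant genes was 16.2%, 17.6% and 18.2% of counts in the lowest, median and highest RCF YY library and 16.8%, 18.3% and 19.2% in in vitro young (means 17.6% and 18.2%, p = 0.0428, adjusted p = 0.171). The number of genes detected at an equal depth of 462476 counts averaged 13226 ± 241.3 in RCF YY and 13375 ± 246 in in vitro young (SD, p = 0.203, adjusted p = 0.295). The summed granulosa marker level averaged 6.55 ± 0.21 in RCF YY and 6.70 ± 0.32 in in vitro young on the log2(CPM + 1) scale (SD, p = 0.221, adjusted p = 0.295). None of these differences, nor that of the mitochondrial share (adjusted p = 0.791), passed after adjustment, which does not show that the groups were alike.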

How the data were processed

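The deposited table held whole-number read counts per gene, not normalized, for 55357 gene identifiers in 45 single mouse oocytes. The submitters' processing notes name the aligner STAR 2.7.8a, the counter HTSeq 0.11.0 and the build mm39. How strand and reads shared by near-identical genes were handled is not stated there. Gene coordinates are the deposited ones, counted from 1. Without molecular identifiers, amplified reads cannot be counted as molecules, and depth limits genes of low level. Every pair of libraries within a group differed by more than counting noise (chi-square over degrees of freedom at least 2.61 in RCF YY and 3.07 in in vitro young).

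RCF YY, in vitro young and in vivo young (27 libraries) were fitted with edgeR 4.0.16 in R 4.3.3 (TMM scaling, filterByExpr with minimum count 10 and minimum total 15, robust quasi-likelihood F test), and the contrast RCF YY minus in vitro young was adjusted by the Benjamini-Hochberg method over all tested genes. SEs were derived from the F statistic. The fit was checked on simulated data, where it recovered 39.1% of 1.5-fold, 79.7% of 2-fold and 100% of 4-fold changes. Of the calls made there 6.58% were false. A gene that was not called may therefore still differ. Genes were named by rule: up to 15 per direction by smallest p among genes called, changed by a log2 of at least 1, with a mean of at least 10 CPM in the higher group and 5 or more counts in 0.75 of that group's libraries, predicted models left out; and up to 3 called members per direction of each of 42 lists. Other genes in the text, marked there or belonging to a list beyond these called members, were picked with their values known. The members, the lists and the named families were chosen with earlier results of these data known. Transcript GC content and length came from GENCODE M21, promoters from RefSeq. Alternatives used DESeq2 1.42.0, limma 3.58.1 and mgcv 1.9.3 besides other filters, scalings and sets of libraries; thinning, a random block for libraries that share a pattern of all-or-nothing genes, DESeq2 on 1 numbering series and the 16 libraries without the block were added after seeing the data.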

Additional observations from a re-analysis of the deposited data

Results flagged for a closer look

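Single libraries stood apart from the rest of their group for 11 of 178 combinations of a value and a group that were tested. Chance gives about 1 in 20. All 11 were levels of named genes. In in vitro young, the highest library stood apart for Gbp7 (replicate 6, 53.6 CPM, next 21.9 CPM), Fbxw23 (replicate 5, 260 CPM, next 204 CPM), Nlrp4e (replicate 4, 241.7 CPM, next 175 CPM), Eif3a (replicate 5, 101 CPM, next 70.9 CPM) and Sil1 (replicate 6, 160 CPM, next 101 CPM), and the lowest for Trim71 (replicate 2, 170 CPM, next 222 CPM). In in vivo young, the highest library stood apart for Sf3a2 (replicate 3, 42.6 CPM, next 19.2 CPM), Dcdc2c (replicate 1, 69.5 CPM, next 45.1 CPM) and Il17f (replicate 2, 57.0 CPM, next 34.3 CPM), and the lowest for Tacc3 (replicate 6, 1074 CPM, next 1894 CPM) and Tcp1 (replicate 6, 124 CPM, next 230 CPM). Leaving out the library that stood apart took the call from Nlrp4e (in vitro young replicate 4), Eif3a (replicate 5) and Sil1 (replicate 6). Nlrp4e lost its call in 1 of 19 fits that left out 1 library each, Eif3a in 12 and Sil1 in 13. RCF YY has more than 10 libraries and was not examined in this way.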

How the results depend on the processing

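All 217 called genes kept their direction in every alternative in which they could be fitted, and no named gene changed sign. These genes had been chosen on the same libraries, so a kept direction was largely set in advance. The number of calls moved (total, then higher and lower). It was 404 (153 and 251) with DESeq2, 532 (208 and 324) with limma voom and quality weights, 378 (140 and 238) with 45 libraries in the fit and 465 (159 and 306) with detected genes as a covariate. It was 99 (26 and 73) with RCF YY libraries S198 to S202 alone, 803 (343 and 460) with S225 to S231 alone, 387 (123 and 264) against in vitro young libraries S162 to S165 alone and 0 (0 and 0) against S128 to S149 alone, where DESeq2 called 1 (0 and 1). Thinning to equal depth gave 76 (20 and 56), where fewer reads and genes enter, and a random block for the pattern of all-or-nothing genes gave 147, of which 89 lower. Leaving out each library in turn gave 114 to 352 calls, 34 to 1.3e+02 higher and 80 to 224 lower. Without RCF YY replicate 7 the higher calls were 45, and without replicate 3 they were 107. The cause of these shifts was not tested. Same-numbered libraries did not deviate together (correlations from -0.22 to 0.0669), so the numbers do not pair them; with the replicate block 43 genes were called (13 and 30), against 126 (43 and 83) for the same 16 libraries without the block, and only number 6 correlated best with its own number. Scaling by RLE, either filter on low counts, the fit of 19 libraries and the GC and length offset kept the total within 1.5 times.

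The difference in mitochondrially encoded share (percentage points) was -0.0569 with RCF YY libraries S198 to S202 alone, -0.0115 against in vitro young S162 to S165 alone and -0.29 on the log2 scale, against 0.00878 with all libraries. Genes detected at equal depth differed by -306 with RCF YY S198 to S202 alone (exact permutation p = 0.0326), and by 49.7 where at least 5 counts were asked for. The share of the 50 most abundant genes differed by -0.84 percentage points with RCF YY S225 to S231 alone, by -0.883 against in vitro young S162 to S165 alone, and by -1.04 for 200 genes (exact permutation p = 0.031, 0.0044 and 0.0338). These p-values are not adjusted.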
